A study of Canis lupus familiaris with 15 samples.

Results

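MYH2, MYL2, CA3 and UTRN, 4 genes that skeletal muscle is known for, were followed over 15 samples from 5 dogs with lymphoma to see which samples carried muscle RNA. They were found through the RefSeq accession of each array probe, which gave 15 probes (5 for MYH2, 5 for MYL2, 3 for CA3 and 2 for UTRN) for these 4 genes, out of 43603 probes and 1357 named genes on the array. MYH2 encodes a myosin heavy chain of fast muscle fibres, the motor that pulls on actin. MYL2 encodes the regulatory light chain bound to myosin in slow skeletal fibres and in the heart ventricle. CA3 is a cytosolic carbonic anhydrase that is abundant in slow fibres and in fat cells. UTRN encodes utrophin, a relative of dystrophin that ties the cytoskeleton to the cell membrane and is made in many cell types. Lymph nodes and lymphomas have no skeletal muscle of their own, whereas in dogs a sheet of muscle lies under the skin of the trunk.

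Each sample was hybridised once to a 1-colour Agilent array. The tumour samples were 1 post-mortem tumour sample, 3 relapse aspirates after metformin (a drug for diabetes), 1 aspirate in remission after metformin, 1 aspirate after failed chemotherapy and before metformin, and 1 aspirate labelled as a second original drug-resistant tumour, all from the dog Rosco, 1 aspirate of the drug-resistant tumour of MalcolmX after metformin, 1 biopsy of a drug-sensitive tumour (Thai) and 4 biopsies of original drug-resistant tumours, from Dog Y, Jake, MalcolmX and Rosco. The controls were skin biopsies of 2 of these dogs, MalcolmX and Rosco, so all samples came from dogs with lymphoma. The labels also say that the Rosco and Dog Y biopsies were taken before treatment, and the titles of the relapse aspirates call them no remission. The title of the Thai biopsy calls the tumour naive, and the title of the failed-chemotherapy aspirate gives the chemotherapy as chop. Most of the Rosco samples are repeats from 1 animal, so their spread is within that dog, and the biopsies come from 1 sample per dog. Ages, sexes and breeds are not given in the sources used here.

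A level is the log2 of the signal after subtracting the array's own 75th percentile on that scale. At 0 a probe is thus bright. A level can be compared between samples for 1 probe but not between probes. The lowest signal well above background lay between −6.86 and −5.50 over the arrays, and 66.7% to 75.9% of spots per array were well above background. KRT1, the keratin of the outer epidermis, was 5.36 in MalcolmX skin and 8.26 in Rosco skin, and among the 13 tumour samples it was above background in 1, at −6.28 in Thai. MS4A1, which encodes the B cell protein CD20, was between 0.38 and 3.53 in 11 of the tumour samples but not above background in the Rosco biopsy (−7.16) or the second resistant aspirate (−6.73), and it was 0.84 in MalcolmX skin and not above background in Rosco skin (−8.04). In these 2 Rosco tumour samples CA6, a carbonic anhydrase secreted by salivary and other glands, was 8.59 and 8.99, against at most 1.45 elsewhere. The B cell marker was thus below background in 2 samples labelled lymphoma. The main tests on the brightest probes that include the Rosco biopsy are given with and without it.

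On its brightest probe MYH2 was bright in both skin samples, and much brighter in MalcolmX skin than in Rosco skin. The brightest MYH2 probe was 7.25 in MalcolmX skin and 2.16 in Rosco skin. In the tumour samples it ran from −8.61 to −1.92 with a median of −7.34, and it was above background in 6 of 13. These were the Rosco biopsy (−1.92), the second resistant aspirate (−2.02), the post-mortem sample (−4.31) and the relapse aspirates (−4.49, −4.42 and −5.35), all from Rosco. The other 4 MYH2 probes were above background in the 2 skin samples and in 0 of 13 tumour samples, where their highest level was −5.59. The MYH2 signal in Rosco tumour samples therefore rested on 1 probe of 5.

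Over the 13 tumour samples that probe followed MYH7, the slow muscle and heart myosin (Pearson r = 0.903, Spearman rho = 0.835), and MYH8, the perinatal myosin (r = 0.860, rho = 0.676), whose sequences are close to that of MYH2. The probe was less like the myosins MYH3 (r = 0.628, rho = 0.637) and MYH4 (r = 0.667, rho = 0.407). MYH4 was above background in 1 of the 13 samples. MYH1, above background in all 13, went the other way (r = −0.448, rho = −0.126). These correlations describe arrays that share dogs and slides. MYH8 was 0.66 in the Rosco biopsy, 0.60 in the second resistant aspirate and 0.36 in the post-mortem sample. It was 0.84, 0.52 and −0.64 in relapse aspirates 1, 2 and 3, and −4.82 to −2.01 in the other tumour samples. In skin MYH8 was −0.0036 in MalcolmX and −0.95 in Rosco. Whether that probe also binds RNA of these related myosins was not tested, so the MYH2 level of the tumour samples is uncertain.

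MYL2 showed the same order of the skin samples. Its brightest probe was 3.68 in MalcolmX skin and −1.88 in Rosco skin. Among tumour samples it was above background in 3 of 13: the second resistant aspirate (−0.51), the Rosco biopsy (−1.65) and relapse aspirate 3 (−5.73). Its probes disagreed. In the Rosco biopsy the other 4 probes lay between −8.03 and −7.03, none above background, and in the second resistant aspirate between −7.60 and −6.21, none above background. A different probe was at −3.57 in the remission aspirate, the highest of its 5 tumour samples above background. All 5 MYL2 probes were above background in both skin samples.

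CA3 behaved differently on its brightest probe, which was as bright in Rosco skin as in MalcolmX skin. Its other 2 probes were higher in MalcolmX skin, by 1.30 and 1.59. Its brightest probe was 6.48 in MalcolmX skin and 6.62 in Rosco skin. It was above background in 7 of 13 tumour samples, with 1.48 in the MalcolmX aspirate after metformin, −0.33 in the Rosco biopsy, −0.42 in the failed-chemotherapy aspirate, −0.94 in the second resistant aspirate, −3.28 in the MalcolmX biopsy, −4.09 in remission and −5.38 in relapse aspirate 2. The Thai, Jake and Dog Y biopsies, the post-mortem sample and relapse aspirates 1 and 3 were not above background. The other 2 CA3 probes were above background in 3 and 1 tumour samples, and both were highest in the MalcolmX aspirate (−3.14 and −3.80).

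UTRN was above background on every array with both probes. Its brightest probe ran from −2.94 to −0.51 in tumour samples and was −0.99 in MalcolmX skin and −0.38 in Rosco skin, so skin and tumour overlapped. It was lowest in the relapse aspirates (−2.94, −2.74 and −2.80) and, among tumour samples, highest in the remission aspirate (−0.51).

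**Figure D1:**
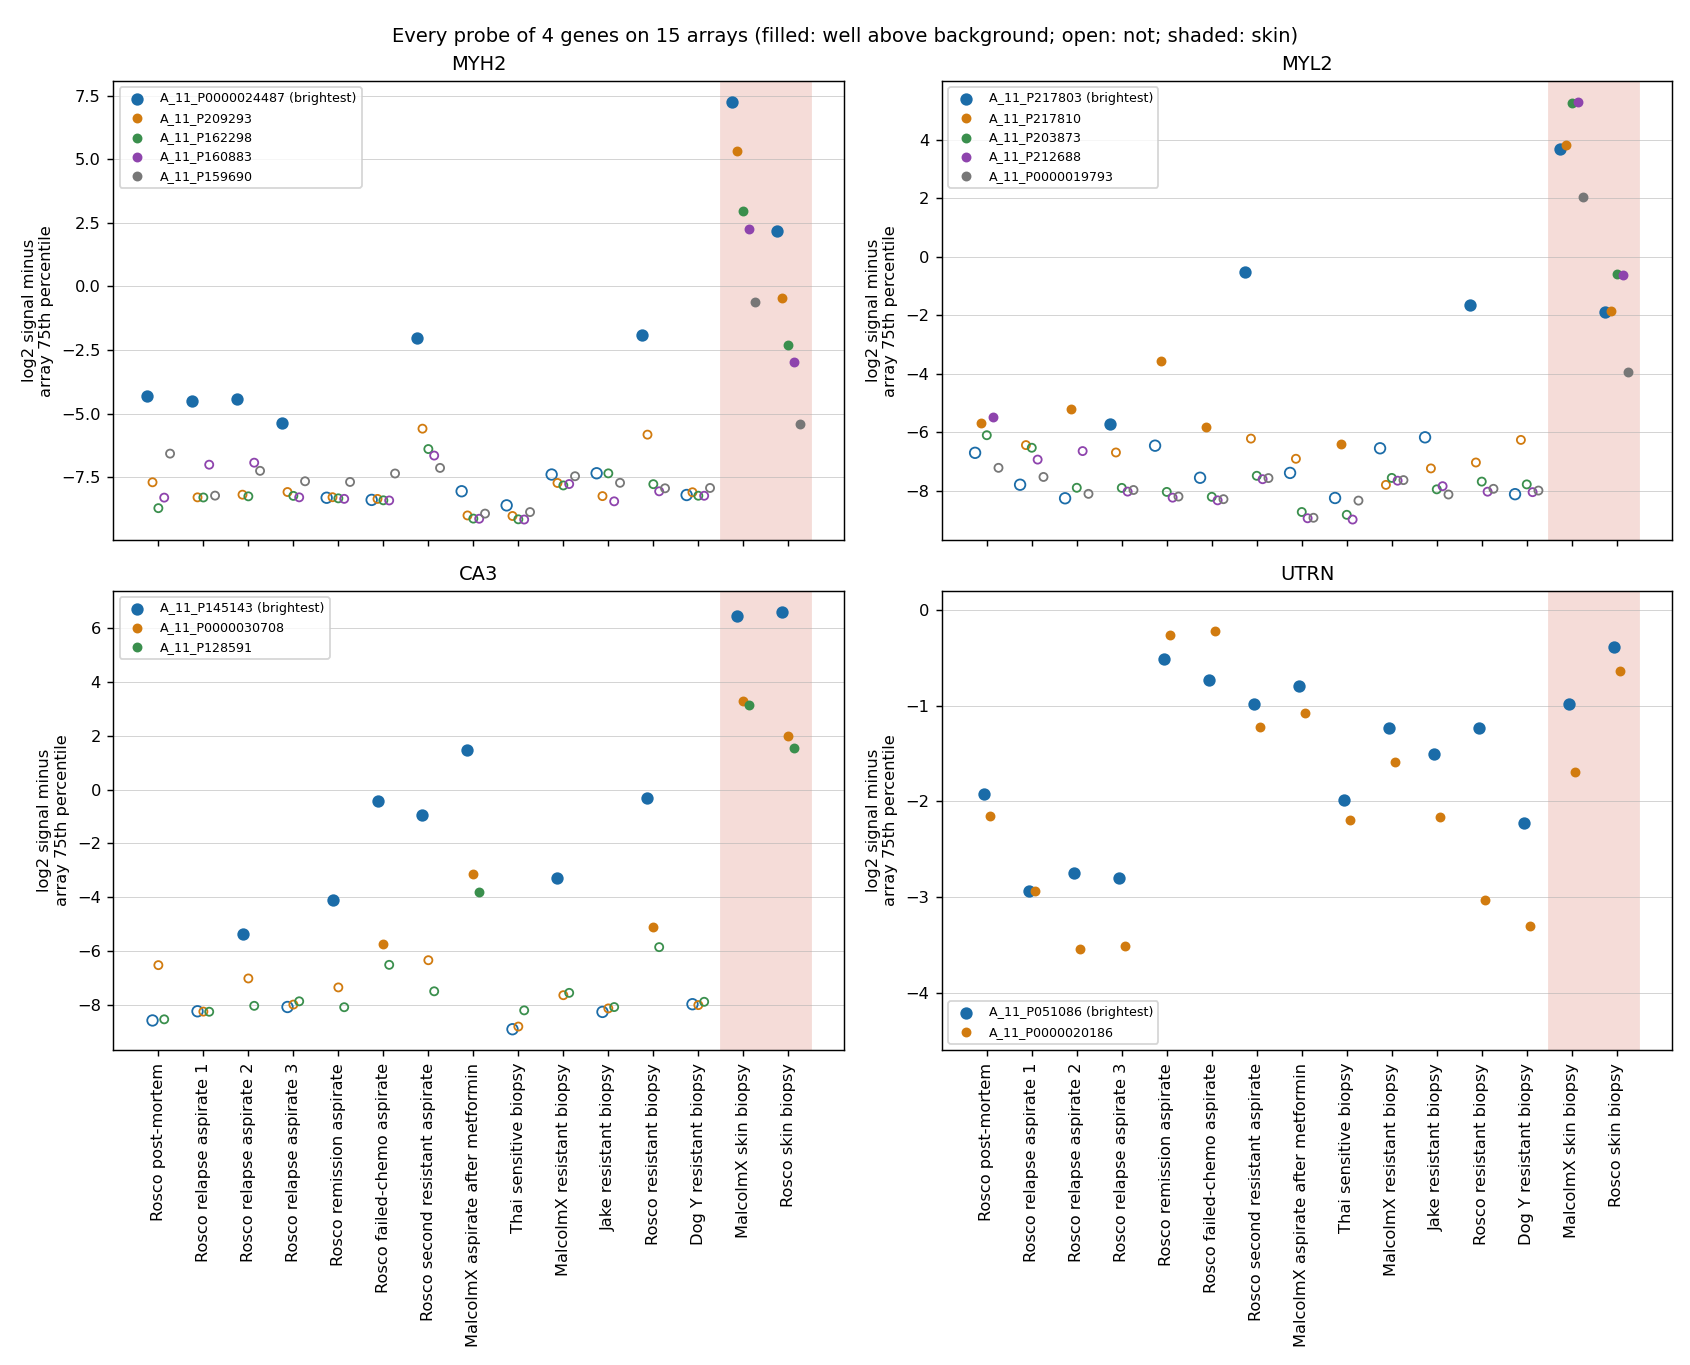
Level of every probe of MYH2, MYL2, CA3 and UTRN (log2 signal minus the 75th percentile of the array) in 13 tumour samples and, shaded at the right, 2 skin samples. Filled points were well above background and open points were not. All MYH2 and MYL2 probes stand highest in MalcolmX skin, while UTRN is filled throughout.

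By the mean of each group, skin was highest of the 9 groups for MYH2, MYL2 and CA3, and the remission aspirate was highest for UTRN. Each step between neighbours in this order was compared with the mean SD within groups. For MYH2 the step from skin (4.71 ± 3.60, SD, n = 2) to the second resistant aspirate (−2.02) was 6.73 and larger than that SD of 2.34, and the other 7 steps were smaller than it. For MYL2 the step of 1.41 between skin (0.90 ± 3.93, SD, n = 2) and the second resistant aspirate (−0.51) was smaller than the SD of 2.69, and the step of 5.11 below that aspirate was larger. For CA3 the step of 5.08 below skin (6.55 ± 0.10, SD, n = 2) exceeded the SD of 1.85. For UTRN the remission aspirate, skin (−0.69 ± 0.43, SD, n = 2), the failed-chemotherapy aspirate, the MalcolmX aspirate and the second resistant aspirate were separated by steps of at most 0.20, below the SD of 0.33, and the relapse aspirates (−2.83 ± 0.10, SD, n = 3) stood 0.84 below the Thai biopsy. Levels of a tissue mixture cannot tell fewer muscle cells from less RNA per muscle cell.

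The 2 skin biopsies were set side by side because the muscle genes split them. There is 1 array per side and thus no test. The 2 arrays also lay on different slides, so dog, biopsy and slide cannot be told apart. For MalcolmX minus Rosco skin, the 5 MYH2 probes differed by 4.81 to 5.78 (median 5.25) and the 5 MYL2 probes by 5.56 to 5.96 (median 5.83). The 3 CA3 probes differed by −0.15 to 1.59 and the 2 UTRN probes by −1.06 and −0.60. Under quantile normalisation, normexp background correction or the deposited series table the brightest MYH2 probe differed by 5.10, 5.46 and 5.34, and the brightest CA3 probe by −0.51, −0.50 and −0.10.

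Of the 49 genes listed as contractile proteins, 11 were named on the array, 9 of them besides MYH2 and MYL2. Of these 9, 8 were above background in both skin samples, of which 8 were higher in MalcolmX skin and 4 at least 16-fold higher. Under the other 3 scalings 7 were higher, and again 4 at least 16-fold. Only 1.27% of 23452 targets above background on both arrays were at least 16-fold higher in MalcolmX skin, a threshold chosen after the values were seen. MYOZ1, a Z-disc protein of fast fibres, was 5.91 in MalcolmX skin and −1.83 in Rosco skin. TCAP, which caps titin, was 6.04 and −0.67, and DES, the muscle intermediate filament desmin, was 3.57 and −2.76 in the same order. Over 5 skeletal muscle lists, 31 genes were named besides MYH2, MYL2, CA3 and UTRN, and 25 were above background in both skin samples. Of these, 22 were higher in MalcolmX skin (18 to 21 under the other scalings) and 7 at least 16-fold higher (6 to 8).

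Membrane and excitation genes were among them. CAV3, the caveolin of muscle, was 4.52 in MalcolmX skin and −3.61 in Rosco skin. CLCN1, the muscle chloride channel, was 0.84 in MalcolmX skin and −4.99 in Rosco skin, and ATP2A2, a calcium pump of the sarcoplasmic reticulum, was 4.36 in MalcolmX skin and 1.19 in Rosco skin. CKMT2, the mitochondrial creatine kinase of striated muscle, was 1.78 in MalcolmX skin and −5.47 in Rosco skin. In contrast DMD, which encodes dystrophin, was 3.33 in MalcolmX skin and 3.10 in Rosco skin. Of 8 keratinocyte genes above background in both, 0 were higher in MalcolmX skin (median difference −3.05), and of 6 fat cell genes 5 were higher and 0 at least 16-fold. The part of these other cell types in the difference was not tested.

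**Figure D2:**
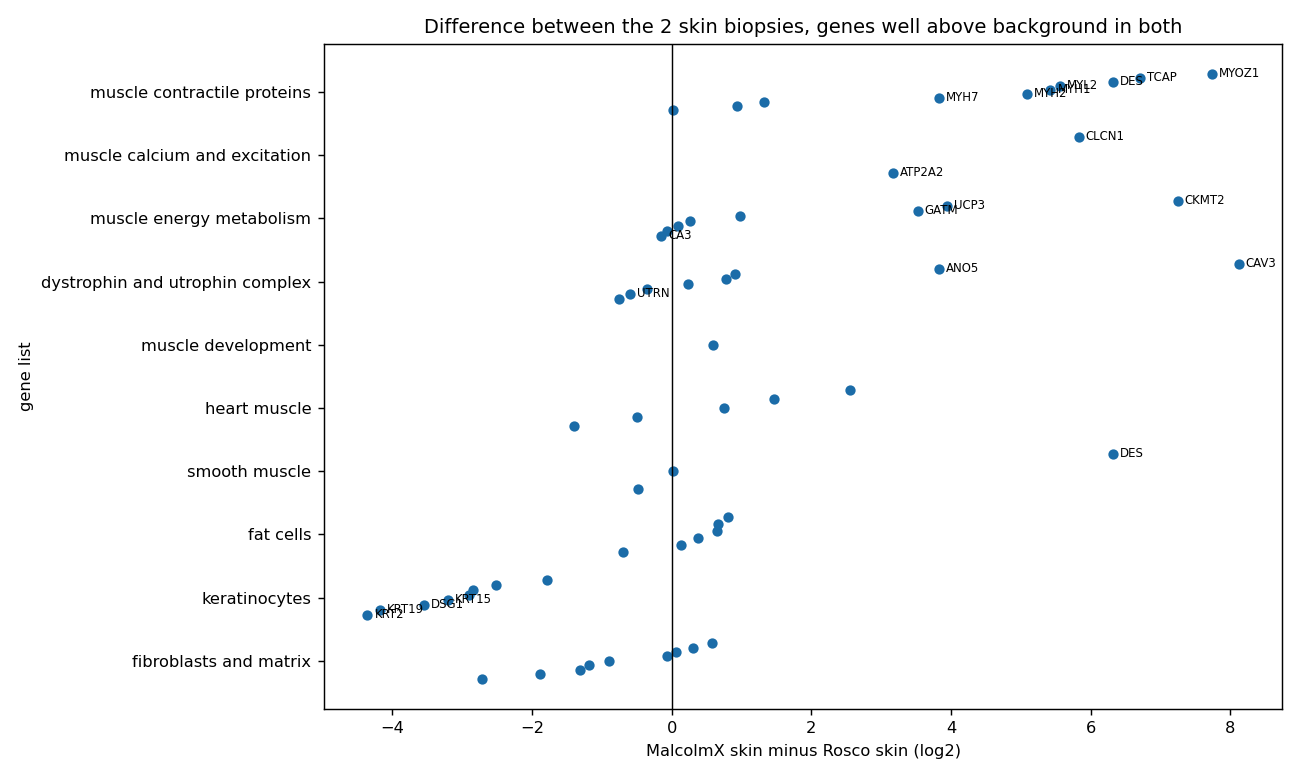
Difference between the skin biopsies, MalcolmX minus Rosco (log2), for each named gene above background in both, by gene list. Of the contractile genes, MYH2 and MYL2 included, 6 lie at 4 or more and none below 0, while CA3, UTRN and the fat cell genes lie near 0 and the keratinocyte genes left of it. Each gene is shown by its brightest probe, and the other CA3 probes differed by 1.30 and 1.59.

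MalcolmX skin was the array with the highest level for 21 of the 31 other muscle genes. The 31 were not filtered by background, and the 21 include NOS1 (−5.48 there), which was above background on 0 arrays. Over 1201 named genes above background on at least 2 arrays, 9.24% had their highest level there. Rosco skin was highest for 1 of the 31, and for 13.7% of the 1201.

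**Figure D3:**
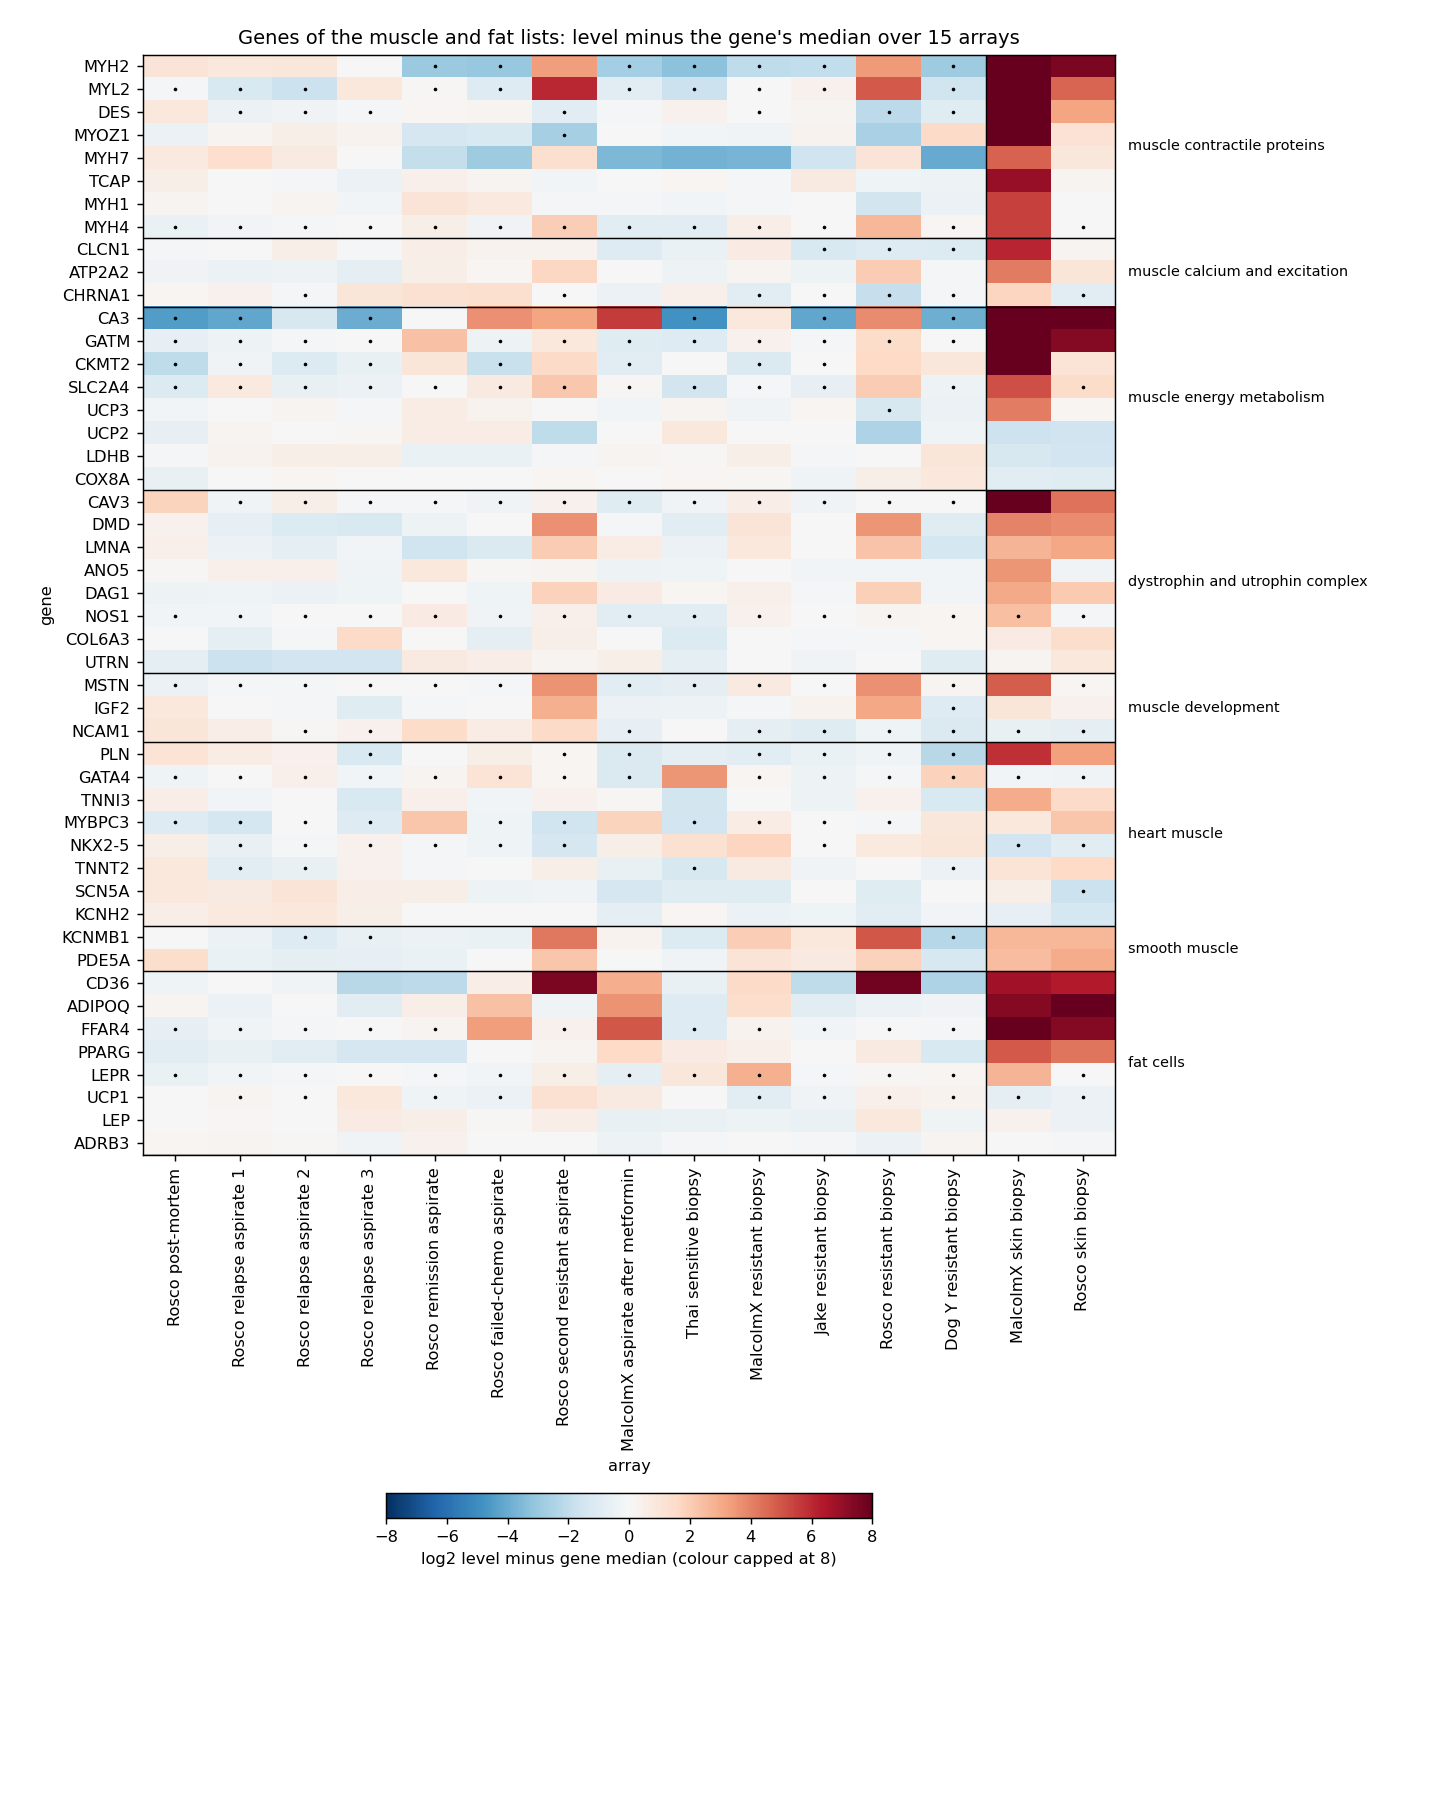
Level of named genes of the muscle, heart, smooth muscle and fat cell lists minus its own median over 15 arrays (log2, colour capped at 8), with tumour samples left of the line and skin right of it. Small black points mark values not well above background. The darkest red column is MalcolmX skin, and the second resistant aspirate and the Rosco biopsy share a set of reds.

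Drug-resistant biopsies were set against skin to place the tumours beside the control tissue. MYH2, MYL2 and CA3 averaged far below skin, but their brightest probes did not pass the test with all 4 biopsies and passed it without the Rosco biopsy. MYH2 was −7.39, −7.34, −1.92 and −8.20 in the MalcolmX, Jake, Rosco and Dog Y biopsies, against 7.25 and 2.16 in MalcolmX and Rosco skin. The difference was −10.92 (SE 2.16, adjusted p = 0.141 by limma). The groups did not overlap, as was the case for 28.5% of all targets tested. CA3 was −3.28, −8.27, −0.33 and −7.99 in the biopsies, against 6.48 and 6.62 in skin. It differed by −11.52 (SE 2.33, adjusted p = 0.145), and by −10.37 as the mean of its 3 probes (adjusted p = 0.0386). MYL2 was −6.55, −6.17, −1.65 and −8.11 in the biopsies, against 3.68 and −1.88 in skin, and here the Rosco biopsy lay above Rosco skin. The MYL2 difference was −6.52 (SE 2.17, adjusted p = 0.295). UTRN was −1.23, −1.51, −1.24 and −2.22 in the biopsies, against −0.99 and −0.38 in skin, a difference of −0.86 (SE 0.43, adjusted p = 0.372).

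Over all targets, limma called 104 of 23951 (0.434%), and the median difference was 0.25. With the Rosco biopsy left out, 3125 of 24443 were called (12.8%), 6.13% higher and 6.66% lower. MYH2 was then at least 1515-fold lower (adjusted p = 0.0167) and MYL2 at least 108-fold lower (adjusted p = 0.0393), with 0 of 3 biopsies above background for either. CA3 differed by −13.06 (adjusted p = 0.0176) with 1 of 3 biopsies above background, so that value rests in part on background readings. These 3 genes entered the test through skin alone, where they could hardly be other than lower. UTRN was not called (−0.97, adjusted p = 0.169). Leaving out the MalcolmX, Jake or Dog Y biopsy instead gave 11, 5 and 21 called targets, and leaving out MalcolmX or Rosco skin gave 327 and 321.

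Taken probe by probe, 2 of the 15 probes passed. Both were CA3 probes, against a background of 0.543% of 29834 probes called. One was above background in 0 of 4 biopsies and at least 291-fold lower there than in skin (adjusted p = 0.0126), and the other was above background in the Rosco biopsy alone (−9.89, adjusted p = 0.0190). Both entered the test through skin alone. Another 2 probes, both for MYL2, were above background in 0 of 4 biopsies and were at least 289-fold and at least 288-fold lower (adjusted p = 0.0566 for each). The 4 MYH2 probes above background in no biopsy were at least 7.13-fold to at least 311-fold lower, and the adjusted p of the 5 MYH2 probes ran from 0.0757 to 0.211. Without the Rosco biopsy 11 of the 15 passed, 4 for MYH2, 4 for MYL2 and 3 for CA3, where 12.5% of all probes did.

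**Figure D4:**
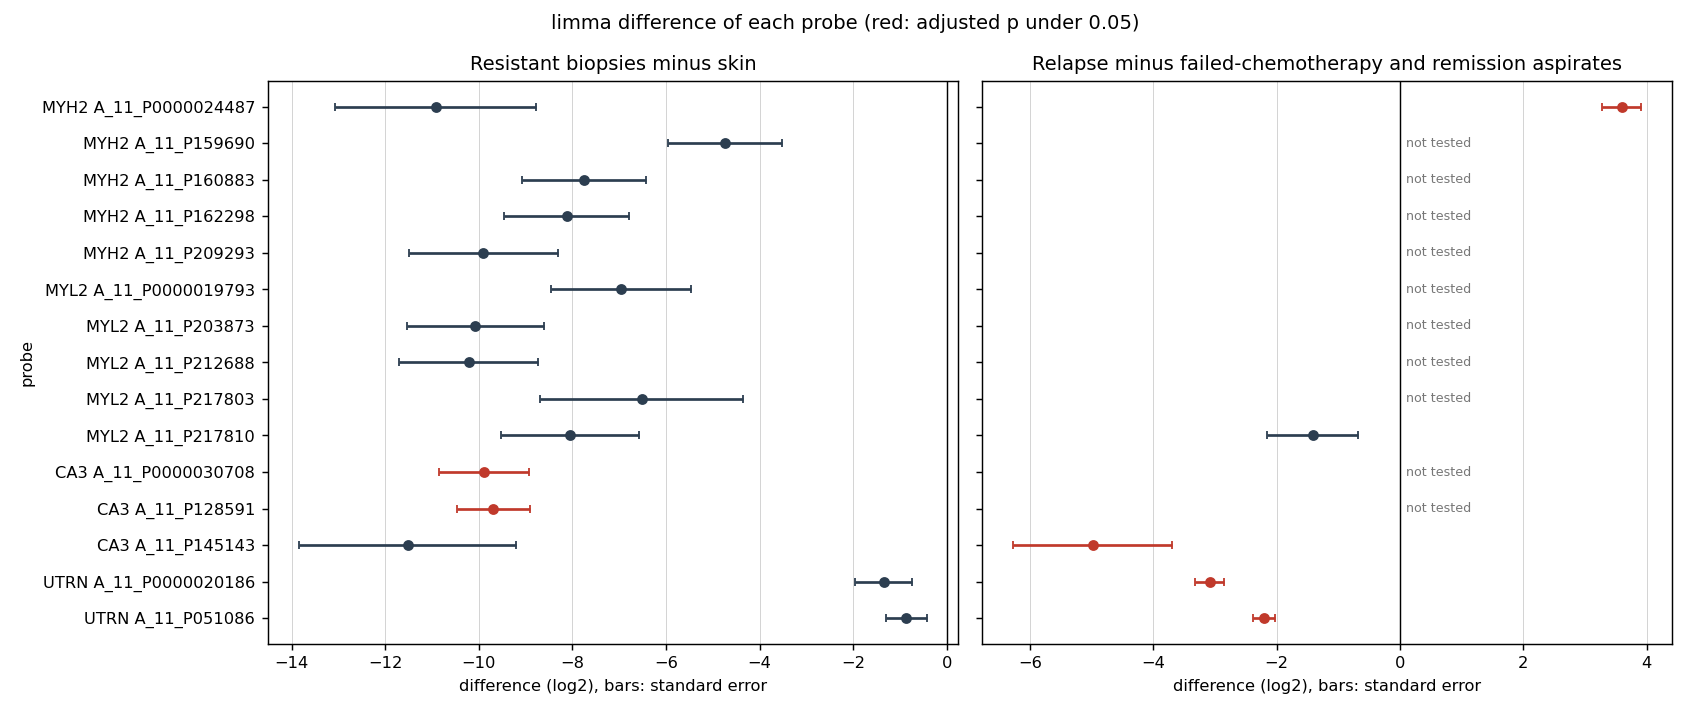
Difference of each of 15 probes with its standard error (log2), for resistant biopsies minus skin at the left and relapse aspirates minus the failed-chemotherapy and remission aspirates at the right. Red points passed an adjusted p of 0.05 in limma. Of the MYH2 and MYL2 probes none passed at the left, and 1 MYH2 probe passed at the right.

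Of the 35 named muscle list genes 29 were tested, those above background in every skin sample or every biopsy, so a gene bright in skin alone had to be lower. Within that limit, 2 were called and both were lower in the biopsies, as were 0.426% of all targets. Without the Rosco biopsy 10 of the 29 were called lower, MYH2, MYL2 and CA3 among them, and 3 higher. Of all targets, 6.66% were then called lower and 6.13% higher. GATM, which starts creatine synthesis, was at least 137-fold lower with all 4 biopsies (adjusted p = 0.0368) and at least 138-fold lower without the Rosco biopsy (adjusted p = 0.0162). The fat cell hormone gene ADIPOQ differed by −7.73 (SE 0.70, adjusted p = 0.0168) and the fatty acid receptor gene FFAR4 was at least 46.1-fold lower (adjusted p = 0.00355), and both were also called without the Rosco biopsy (adjusted p = 0.0131 for ADIPOQ and 0.00487 for FFAR4). The 10 tested contractile genes, which include MYH2 and MYL2, had a median difference of −4.25, 9 of them lower and 0 called. Without the Rosco biopsy, where 12.8% of all targets were called, the median of these genes was −4.20 and 5 were called. These were MYH2, MYL2, MYH7 (−5.91, adjusted p = 0.0432) and MYH8 (−3.91, adjusted p = 0.0187), all lower, and the tropomyosin gene TPM3, which was higher (1.98, adjusted p = 0.0268). CAV3 was at least 78.6-fold lower without passing (adjusted p = 0.211), nor did it pass without the Rosco biopsy (adjusted p = 0.0640). LDHB and COX8A, genes of general energy metabolism, differed by 1.73 and 1.18 and were not called, while without the Rosco biopsy LDHB was (1.84, adjusted p = 0.0491) and COX8A was not (1.12, adjusted p = 0.126).

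Within the dogs that gave both tissues, the biopsy of MalcolmX was not above background for any MYH2 or MYL2 probe, all of which were above background in its skin. It was thus at least 29.7-fold to at least 6901-fold lower over 5 MYH2 probes and at least 184-fold to at least 1762-fold lower over 5 MYL2 probes. The brightest CA3 probe differed by −9.76, and the other 2, not above background in the biopsy, were at least 396-fold and at least 449-fold lower. In Rosco 1 of 5 MYH2 probes, 1 of 5 MYL2 probes and 2 of 3 CA3 probes were above background in the biopsy. The other 4 MYH2 probes were at least 1.31-fold to at least 40.9-fold lower there than in Rosco skin, and the other 4 MYL2 probes at least 3.67-fold to at least 37.4-fold lower, while the bright MYL2 probe differed by 0.23. With slide as a block the MYH2 and CA3 differences were −11.67 and −11.17 (adjusted p = 0.232 and 0.331), and within slide 2, where the only such arrays were the biopsy of MalcolmX and the skin of Rosco, −9.56 and −9.90.

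The relapse aspirates of Rosco were compared with the failed-chemotherapy and remission aspirates of the same dog. UTRN was lower and the bright MYH2 probe was higher. UTRN was −2.94, −2.74 and −2.80 in the relapse aspirates, against −0.74 in the failed-chemotherapy and −0.51 in the remission aspirate. It fell by 2.20 (SE 0.18, adjusted p = 0.000730 by limma), and its other probe fell by 3.09 (SE 0.24, adjusted p = 0.000579). Both probes were lower in 3 of 3 relapse aspirates than in either earlier aspirate. Limma called 33.7% of 25382 targets in this comparison, 17.4% higher and 16.3% lower, and 60.3% did not overlap, so a call on its own was common.

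MYH2 was −4.49, −4.42 and −5.35 in the relapse aspirates, against −8.39 and −8.31, both not above background, in the failed-chemotherapy and remission aspirates. It rose at least 2.50-fold (adjusted p = 0.000867), on 1 probe, since the other 4 were not above background in any of the 5 aspirates. It entered the test through the relapse aspirates alone, and could hardly be other than higher. CA3 was −8.25, −5.38 and −8.09 in the relapse aspirates, with relapse aspirate 2 alone above background, against −0.42 and −4.09. It entered the test through the earlier aspirates alone, so it could hardly be other than lower, and 2 of the 5 values are background readings. It fell by 4.98 (SE 1.29, adjusted p = 0.0290), on 1 probe, and this call was lost without relapse aspirate 1 (adjusted p = 0.0739), relapse aspirate 3 (0.0792) or the failed-chemotherapy aspirate (−3.15, adjusted p = 0.139). In a fit of all 15 arrays with a shared spread neither was called (adjusted p = 0.389 for MYH2 and 0.288 for CA3), while UTRN was (adjusted p = 0.0251). MYL2 was not tested on its brightest probe, which was above background in 1 of the 5 aspirates. Another MYL2 probe entered the test through the earlier aspirates alone. It differed by −1.41 and was not called (SE 0.74, adjusted p = 0.191 by limma).

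Of 8 contractile genes tested, MYH2 included, 4 rose and 1 fell, where 17.4% of all targets were called higher and 16.3% lower. Besides MYH2 these were MYH7 (3.07, adjusted p = 0.00454), MYH8 (2.66, adjusted p = 0.00914) and MYOZ1 (1.61, adjusted p = 0.00171), while MYH1, a fast fibre myosin, fell by 0.89 (adjusted p = 0.0212). ATP2A2 fell by 0.86 (adjusted p = 0.0205), and DMD differed by −0.81 (adjusted p = 0.0515). In the same comparison MS4A1 rose by 1.70 (adjusted p = 0.00278), and DCN, a matrix protein of fibroblasts, fell by 3.99 (adjusted p = 0.00500). The summed level of 9 fibroblast and matrix genes was 5.01 to 5.17 in the relapse aspirates and 7.07 and 7.32 in the earlier ones. The summed level of 8 fat cell genes was 1.22 to 1.58 in the relapse aspirates and 1.77 and 1.67 in the earlier ones, and ADIPOQ fell by 1.88 (adjusted p = 0.0436). The part of these cell types in the changes of UTRN, MYH2 and CA3 was not tested.

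The post-mortem sample of Rosco was compared with the relapse aspirates. UTRN was −1.93 after death, against −2.94, −2.74 and −2.80 in the relapse aspirates, a difference of 0.90 (SE 0.24, adjusted p = 0.235). MYH2 was −4.31, against −4.49, −4.42 and −5.35, a difference of 0.44 (SE 0.45, adjusted p = 0.667). CAV3 was above background after death at −6.17 and in 0 of 3 relapse aspirates (−8.22, −7.44 and −8.02). The lowest signal well above background was −6.42 after death and −6.06, −6.00 and −5.98 in the relapse aspirates. The post-mortem level would thus not have counted on their arrays. By list, 7 of 9 tested contractile genes were higher after death and 2 lower, while 5 of 5 tested muscle energy genes were lower. Of 27132 targets limma called 0 (0%), while 4129 had an unadjusted p under 0.05. The lone array was taken to vary like the others.

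The drug-sensitive biopsy of Thai carried no detectable MYH2, MYL2 or CA3 on their brightest probes (−8.61, −8.24 and −8.92). Another MYL2 probe was above background in Thai (−6.40) and in 0 of 4 resistant biopsies. The Dog Y biopsy was nevertheless higher on that probe (−6.26). The lowest signal well above background was −6.86 in Thai and −6.13 to −5.50 in the resistant biopsies. The Thai level would thus not have counted on their arrays, and these flags do not show a difference. On the brightest probes, in the resistant biopsies 1 of 4 was above background for MYH2 and MYL2 and 2 of 4 for CA3. UTRN was −1.98 in Thai, against −1.23, −1.51, −1.24 and −2.22 in the MalcolmX, Jake, Rosco and Dog Y biopsies. The UTRN difference was −0.43 (SE 0.57, adjusted p = 1.00), and −0.33 without the Rosco biopsy (adjusted p = 0.987). Its other probe differed the other way, by 0.32 (adjusted p = 1.00). Among 26375 targets 0 were called (0%), as among 26399 without the Rosco biopsy, and with all biopsies 786 had an unadjusted p under 0.05. Thai was scanned on another day than all 4 resistant biopsies, so scan day and group cannot be told apart, and a lone array was again taken to vary like the others.

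In the MalcolmX aspirate CA3 was bright, while both myosin genes were below background. There CA3 was 1.48, against −3.28 in the MalcolmX biopsy, and its other 2 probes, not above background in the biopsy, were at least 3.25-fold and at least 5.12-fold higher. Of 8 named fat cell genes 5 were higher in the aspirate, 2 were lower and 1 was not above background in either. ADIPOQ was 0.83 in the aspirate and −1.34 in the biopsy. FFAR4 was −2.98 in the aspirate and not above background in the biopsy (−7.69). The lower ones were LEP, the leptin gene, at −1.99 in the aspirate and −1.83 in the biopsy, and ADRB3, an adrenergic receptor of fat cells, at 0.51 in the aspirate and 0.92 in the biopsy. MYH2 and MYL2 were not above background in either sample with any probe. There is 1 array per side, hence no test.

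**Figure D5:**
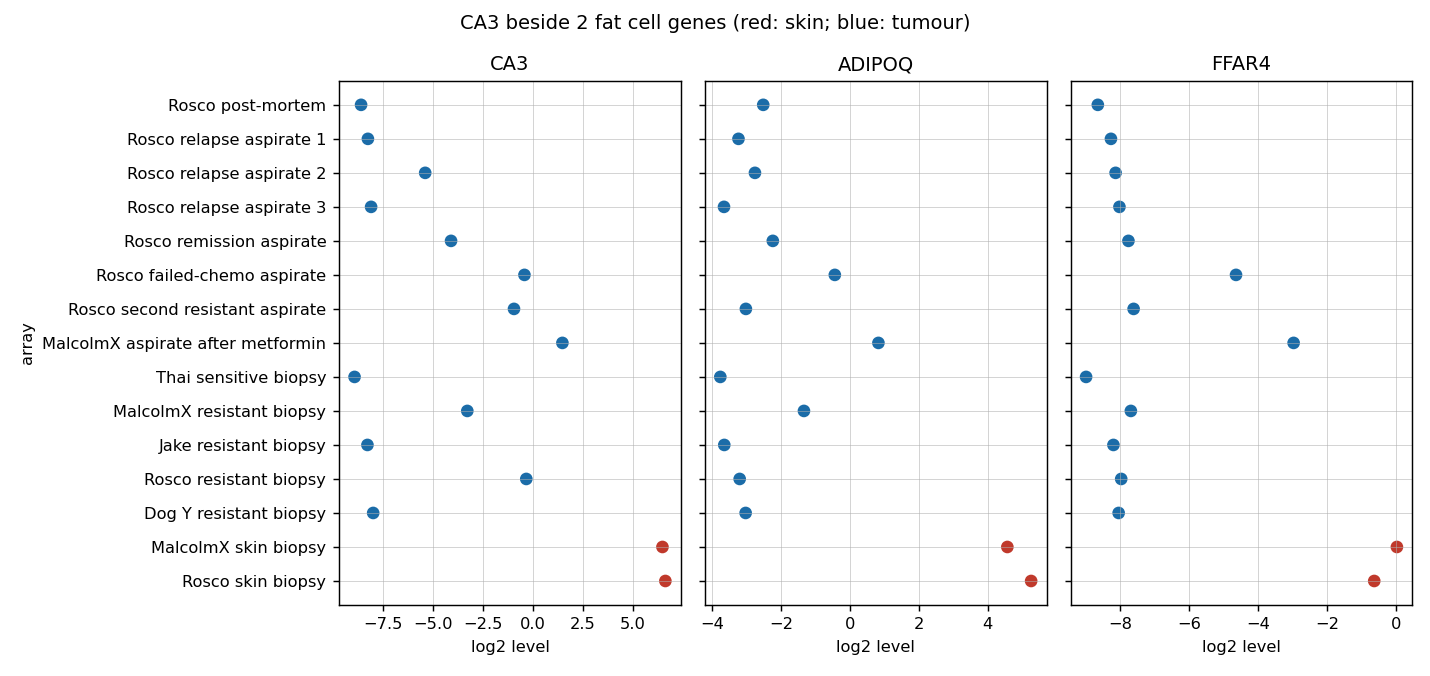
Level (log2 signal minus the 75th percentile of the array) of CA3 and the fat cell genes ADIPOQ and FFAR4 in 13 tumour samples (blue) and 2 skin samples (red). After skin, the MalcolmX aspirate after metformin is the highest sample for all 3 genes. The 2 fat cell genes come from a list of 8. Among tumour samples PPARG was also highest in that aspirate, while CD36, LEP, ADRB3 and UCP1 were highest in other samples. LEPR was above background in no tumour sample. CD36 was 4.91 in the Rosco biopsy and 0.12 in the aspirate.

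In the second resistant aspirate of Rosco, set against the Rosco biopsy with 1 array per side, MYH2 was −2.02 in the aspirate and −1.92 in the biopsy, and MYL2 was −0.51 and −1.65 on the probe that was bright in both. Other muscle-list genes shared that pattern: MSTN, a brake on muscle growth, was −4.41 in the aspirate and −4.35 in the biopsy and not above background in the other 11 tumour samples, and DMD was 3.00 and 2.87. MYOZ1 was not above background in the aspirate (−5.65) and −5.58 in the biopsy, and DES was not above background in either. The smooth muscle gene KCNMB1, a potassium channel subunit, was −1.18 in the aspirate and −0.43 in the biopsy. This aspirate and the biopsy were scanned on different days, so scan day and sample cannot be told apart. In the remission aspirate, set against the failed-chemotherapy aspirate, CA3 was −4.09 and −0.42, and UTRN was −0.51 and −0.74.

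The 4 genes did not share 1 pattern. Over all 15 arrays MYH2 and MYL2 had r = 0.889 (rho = 0.643), and over the 13 tumour arrays r = 0.718 (rho = 0.467). CA3 and UTRN had r = 0.732 (rho = 0.637) over the 13 tumour arrays, while MYH2 and CA3 had r = 0.128 and MYH2 and UTRN r = −0.238. The arrays share dogs, slides and tissues, so these values are descriptions.

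The named gene most like MYH2 over 15 arrays, of 1200 compared, was HSPB8, a small heat shock protein (r = 0.954, rho = 0.811, and r = 0.833 over the tumour arrays). Among the next were HACD1, an enzyme of fatty acid elongation, MAPT (tau) and the heat shock factor HSF4, with r from 0.938 to 0.890. MYL2 was most like CYB5R1 (r = 0.949, rho = 0.729), MAPT, the dystroglycan gene DAG1, ATP2A2 and FXYD1, an ion pump regulator. CA3 was most like DIO1, a thyroid hormone deiodinase above background on 3 arrays (r = 0.935, rho = 0.950), and ANXA1, SLC1A3 and MAL were also among its first 5. UTRN was most like PPFIBP1 (r = 0.906, rho = 0.861), PLA2G15, ANXA2, ABCC5 and B4GALT4. Without MalcolmX skin, 1 of the 5 most alike genes stayed among the first 5 for MYH2, 0 for MYL2, 4 for CA3 and 4 for UTRN.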

How the data were processed

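RNA of 15 samples was labelled with Cy3 and hybridised to canine Agilent arrays, 1 array per sample on 4 slides and 2 scan days. The deposited intensity of each spot came from Agilent Feature Extraction (version 11.0.1.1), per the submitters' processing notes, with local background subtracted, per the file headers. Flags for signal well above background come from the same files. The deposited series table holds background-subtracted median intensity on a linear scale: 678300 of 678300 cells equalled the scanner values within 0.01.

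From these deposited intensities the log2 of the processed signal minus the 75th percentile of each array was computed. Outlying spots were left out and the spots of a probe averaged. RefSeq accessions named 2186 of 43603 probes (5.01%). A target was a gene or unnamed identifier, represented by its brightest probe, and entered the test when 1 or more of the compared groups had it above background throughout. limma 3.58.1 (R 4.3.3) gave two-sided p-values, adjusted by Benjamini and Hochberg's method across the targets of a comparison and called under 0.05. The script was tested on simulated data. "At least" folds use the lowest signal well above background where the dimmer group was below it. A summed level is the log2 of the added signals of a list's genes. Precision is limited by the few arrays, and p-values set a group difference against the spread between these samples. For the Rosco aspirates that spread is within 1 dog, and where a group had 1 array it came from the other group.

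The 4 genes, the 12 gene lists, the tests and the naming rule were chosen with earlier results of these data known. The rule took the 4 genes with every probe, the named genes of the muscle and fat lists (at most 8 a list, by range), the 5 named genes most correlated with each, KRT1 and MS4A1. Results of 2 genes that the rule names are not reported here. Other genes named in the text (MYH3, MYH8, TPM3, CA6 and DCN) were chosen after their values were seen. Dogs pair 2 of the biopsies with skin, since the same animal gave both, and dog was fitted as a block. Tests without the Rosco biopsy on list genes and single probes were added after the values were seen. Alternatives are given at the end.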

Additional observations from a re-analysis of the deposited data

Results flagged for a closer look

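The brightest MYH2 probe was −1.92 in the Rosco biopsy, far from the MalcolmX, Jake and Dog Y biopsies (−7.39, −7.34 and −8.20), and a CA3 probe was −5.09 there, against −8.14 to −7.65 in those 3. Dixon's test marked these 2 of 15 probe groups, where chance marks about 1 in 20. For 1 MYL2 probe the biopsy minus skin difference was −10.23 in MalcolmX, whose biopsy was not above background, and 0.23 in Rosco, and for 1 UTRN probe it was 0.11 in MalcolmX and −2.39 in Rosco. These opposite directions rest on 1 array per side and the difference between dogs was not tested.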

How the results depend on the processing

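For resistant biopsies against skin, 104 targets were called, and 57 with normexp and quantile normalisation, 55 from the series table, 66 with no filter, 653 in one fit of all 15 arrays, 32 with slide as a block and 40 within slide 1. With dog as a fixed replicate block on the 2 dogs with both tissues 0 were called, MYH2 differing by −9.36 and CA3 by −8.36 (adjusted p = 0.325 and 0.0918), and with dog as a random replicate block 152. Leaving out 1 array gave 5 to 3125 calls, with MYH2 from −13.47 to −8.38, MYL2 from −9.30 to −3.74, CA3 from −13.06 to −10.42 and UTRN from −1.17 to −0.56. CA3 passed with normexp (−8.83), the mean of all probes (−10.37) and the one fit (−11.52), as did MYH2 in the one fit (−10.92). For Thai against the resistant biopsies the one fit called 11, leaving out 1 array called 0 in all 4 cases and UTRN ran from −0.66 to −0.33. For the relapse aspirates the one fit called 682 and slide 4 alone 2498, and leaving out 1 array 3772 to 9760, with 5641, 5533 and 3772 without relapse aspirate 1, the failed-chemotherapy aspirate or the remission aspirate. There CA3 missed with normexp (−1.70), no filter (−4.98), the mean of all probes (−2.31), the one fit (−4.98) and within slide 4 (−2.64), was −7.83 within slide 3, and ran from −6.82 to −3.15 with 1 array left out. MYH2 missed in the one fit (3.59), was 3.90 within slide 3 and ran from 3.43 to 3.89, and UTRN ran from −2.32 to −2.09. After death normexp called 215 and the mean of all probes 14, leaving out relapse aspirate 1, 2 or 3 called 107, 0 and 431, MYH2 ran from 0.14 to 0.61 and UTRN from 0.84 to 0.94 and was 1.01 within slide 3. The cause of these changes was not tested. The direction of each tested difference of the 4 genes, on its brightest or mean probe, held in all of these settings, but for Thai the other UTRN probe went the other way (0.32). Of their recomputed differences 124 kept their side of the threshold or, where there was no test, stayed within the replicate spread. Another 7 newly passed, 9 no longer passed and 3 without a test moved beyond that spread. Probes near the background set the limit for the myosins in tumours.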
